A study of Mus musculus with 16 samples.

Results

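The collagen gene family comprised 41 of the 18193 genes with a probeset of their own on Affymetrix MOE430 2.0 arrays, which measure mouse transcripts by hybridisation to short probes. Its members were all genes whose symbol has the form Col, a number, a and a number, except Col17a1, and each was read from the probeset with the highest mean over all arrays. The rule uses names and mean brightness and no difference between samples. Of the 41 genes, 11 were fibrillar collagens, 9 were basement membrane collagens (6 type IV chains, Col7a1, Col15a1 and Col18a1) and 21 were others, among them 9 fibril-associated, 5 type VI, 3 short chain and 3 transmembrane collagens. They were represented by 81 probesets, 14 genes by a single one, and all 41 were tested, since no filter on low signals was applied.

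Total RNA came from 4 samples of control skin of wild type mice and from 12 skin carcinomas, 1 array per sample, all on the FVB background. The 7 p53 tumors arose in k14Cre;p53loxP/loxP animals and the 5 pRbp53 tumors in k14Cre;p53loxP/loxP;pRbloxP/loxP animals, in which the keratin 14 promoter drives Cre recombinase in the basal cells of stratified epithelia and not in fibroblasts, muscle or vessels. By histology, p53 tumors 2, 4 and 5 were poorly differentiated, p53 tumor 3 was undifferentiated, p53 tumor 6 and pRbp53 tumors 1, 2, 3 and 5 were spindle cell carcinomas, and p53 tumors 1 and 7 and pRbp53 tumor 4 were mixed. All 3 poorly differentiated tumors were thus p53 tumors, and 4 of the 6 undifferentiated or spindle tumors were pRbp53 tumors. Ages are not given in the labels, and they do not state that each sample was taken from another animal, so p-values measure only the spread between these samples.

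Collagens are triple helices of 3 chains that cells secrete and assemble outside the cell. Fibrillar collagens such as types I, III and V build the rope-like fibrils of dermis and tumor stroma, chiefly made by fibroblasts, type IV chains form the sheet of the basement membrane under epithelia and around vessels and muscle fibres, and the remaining types decorate fibrils, form beaded filaments or networks, or stay in the cell membrane. Types II, IX, X and XI are best known from cartilage, where type IX lies on fibrils of types II and XI.

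Signals are log2 values, so a difference of 1 is a doubling. Probes differ in how brightly they bind, and levels are compared only within a gene. Of the collagen genes, 28 lay above the median probeset mean of 5.79. Array medians ranged from 5.63 to 5.76, and precision is limited by how few arrays there were. In bulk tissue, fewer cells of a type and less RNA per cell cannot be told apart. Markers of several cell types differed between samples. Skeletal muscle markers averaged 13.20 to 13.48 in control skin against 4.51 to 8.84 in the tumors. Keratinocyte markers averaged 12.18 to 12.45 in control skin and 4.80 to 11.85 in the tumors. The basal keratin Krt5 was at 4.76 in p53 tumor 5, although this tumor is labelled poorly differentiated, against 11.73 and 10.77 in the other poorly differentiated tumors. Other keratinocyte markers were also lower in p53 tumor 5 than in p53 tumors 2 and 4. They were Krt14 (4.41 against 12.93 and 12.81), Trp63 (3.84 against 9.81 and 10.36), Krt10 (7.41 against 11.29 and 11.39) and Krt1 (4.35 against 6.41 and 4.83). Only the epithelial cadherin Cdh1 was close to them, at 10.62 beside 11.30 and 10.97. Control skin 3 and p53 tumor 7 had the largest excess of 3′ over 5′ actin signal, which grows as RNA breaks down (1.33 and 1.67 against 0.21 to 0.68 elsewhere). Control skin 2 and 4 were the most similar arrays of one group, with an SD of 0.22 between their signals over probesets, and averaging them into 1 sample, a choice made after seeing the data, left 5 of the 6 collagen calls made against control skin.

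Promoter sequences of RefSeq (GRCm38.p6) were found for 32 of the 41 genes. The 5 shown belong to genes that carry the results, and each runs over 150 bases up to the base before the transcript start, 5′ to 3′ on the strand of the gene. Col1a2 and Col3a1 were higher in undifferentiated or spindle than in poorly differentiated tumors, Col9a2 and Col10a1 were lower, and Col8a1 was higher in every tumor than in control skin. Capitals mark TATAAA (the letters of a TATA box), CCAAT (of a CCAAT box) and GGGCGG (of a GC box), each on either strand.
Col1a2, chr6:4505468-4505617, plus strand: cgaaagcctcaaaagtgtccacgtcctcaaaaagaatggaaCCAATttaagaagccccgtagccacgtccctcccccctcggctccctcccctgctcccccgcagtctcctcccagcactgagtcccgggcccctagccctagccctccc
Col3a1, chr1:45311388-45311537, plus strand: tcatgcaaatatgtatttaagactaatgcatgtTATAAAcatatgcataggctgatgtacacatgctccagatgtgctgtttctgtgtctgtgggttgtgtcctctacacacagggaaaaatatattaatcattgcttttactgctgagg
Col9a2, chr4:121039416-121039565, plus strand: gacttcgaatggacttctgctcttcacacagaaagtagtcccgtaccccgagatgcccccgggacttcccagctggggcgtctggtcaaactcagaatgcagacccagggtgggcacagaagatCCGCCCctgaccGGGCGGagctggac
Col10a1, chr10:34389831-34389980, plus strand: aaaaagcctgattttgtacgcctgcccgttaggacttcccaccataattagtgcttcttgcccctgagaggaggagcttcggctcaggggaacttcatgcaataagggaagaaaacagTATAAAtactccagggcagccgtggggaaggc
Col8a1, chr16:57754738-57754887, minus strand: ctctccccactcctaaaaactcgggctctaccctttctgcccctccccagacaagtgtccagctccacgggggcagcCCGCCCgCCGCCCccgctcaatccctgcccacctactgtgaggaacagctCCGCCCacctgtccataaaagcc
In the 250 bases before the start, TATAAA or its reverse complement TTTATA occurred in 4 of the 32 collagen promoters (12.5%) and in 12.4% of all 32851 promoters in the table. CCAAT or ATTGG occurred in 11 of 32 (34.4%) against 33.8% of all, and GGGCGG or CCGCCC in 20 of 32 (62.5%) against 32.7%. None of these motifs shares letters with another in the windows shown. In the windows shown, the TATAAA of Col10a1 began 32 bases before the start, that of Col3a1 117 bases before it, and the CCAAT of Col1a2 109 bases before it. By class, GGGCGG occurred in 6 of 8 fibrillar, 5 of 8 basement membrane and 9 of 16 other collagen promoters. The window of Col10a1 lies within the span of the gene Nt5dc1. A match is a description of letters and does not show that a factor binds there.

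The first comparison asked which collagens set carcinomas apart from normal skin (12 tumors against 4 samples of control skin). Of the short chain and fibrillar collagens, Col8a1 and Col11a1 were higher in the tumors, and 2 chains of the minor type IV network, collagen XV and collagen XIV were lower. Col8a1, a short chain collagen of vessel walls and of the membrane behind the cornea, was higher by a log2 difference of 2.57 ± 0.45 (SE, adjusted p = 0.000996 by limma), and Col11a1, a minor chain of cartilage and tumor stroma fibrils, 3.91 ± 1.11 higher (adjusted p = 0.0279). Col4a4 fell by 2.78 ± 0.50 (adjusted p = 0.0014), Col15a1 fell by 2.29 ± 0.54 (adjusted p = 0.0094), Col14a1 fell by 1.79 ± 0.38 (adjusted p = 0.0051) and Col4a3 fell by 0.77 ± 0.21 (adjusted p = 0.0229). Thus 2 of 41 collagens were called higher, where 7.57% of all genes were, and 4 were called lower, where 9.17% of all genes were. Over all probesets tested, 13.2% passed. These shares among 41 genes were near the background. The partner chains Col8a2 and Col11a2 did not pass (−0.10 ± 1.07 and 0.53 ± 0.55, adjusted p = 0.964 and 0.589).

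Col8a1 was at 5.93, 6.78, 6.10 and 6.33 in control skin. Its signal in the tumors ran from 7.5 in p53 tumor 3 to 10.95 in pRbp53 tumor 5, with a median of 8.79. All 12 tumors lay above all controls, which corresponded to a mean 5.95-fold higher signal. Of its other probesets, 1 passed in the same direction (2.04 ± 0.44, adjusted p = 0.0051) and the dimmest did not (1.29 ± 0.43, adjusted p = 0.0616).

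Col11a1 was at 3.88, 3.75, 4.68 and 3.71 in control skin. Over the tumors it spread from 4.29 in p53 tumor 3 to 11.14 in p53 tumor 5, with a median of 7.94. It exceeded every control in 11 of 12 tumors, and its SD over the tumors was 2.29 against 0.46 in control skin. A second probeset gave 3.66 ± 1.29 and did not pass (adjusted p = 0.0749), and the call was lost when any 1 of the 4 controls was left out.

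Col4a4 and Col4a3, whose protein chains join with that of Col4a5 into the minor type IV network of kidney, lung and other basement membranes, lie next to each other on chromosome 1. Col4a4 was at 7.73, 6.67, 7.74 and 6.42 in control skin. It had a median of 3.91 over the tumors, from 3.54 to 6.46. The 2 highest tumors were p53 tumor 5 at 6.46 and pRbp53 tumor 4 at 6.05, and 11 of 12 tumors lay below every control. Both other probesets of Col4a4 also passed, at −2.31 ± 0.40 (adjusted p = 0.0011) and −0.87 ± 0.21 (adjusted p = 0.0116). Col4a3 was dim throughout, at 5.56, 4.60, 4.0 and 3.91 in control skin and 3.51 to 4.02 in the tumors. Its groups overlapped, and its call was lost without control skin 1, the highest sample, or without control skin 2.

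Col15a1, a proteoglycan collagen of the outer face of basement membranes around muscle fibres and capillaries, was at 10.23, 8.63, 10.45 and 8.33 in control skin. Tumors ran from 5.6 in p53 tumor 1 to 8.70 in pRbp53 tumor 4, with a median of 7.21. In 10 of 12 tumors it was below all controls. The controls themselves fell into a pair above 10 and a pair below 9, and the call was lost without control skin 1 or without control skin 3. Col14a1, a collagen that coats fibrils of types I and III, was at 9.79, 9.89, 9.76 and 10.43 in control skin. It ran from 6.84 in p53 tumor 6 to 9.41 in p53 tumor 4, with a median of 8.43, and all 12 tumors lay below all controls. Its other probesets gave −1.58 ± 0.52 and −0.47 ± 0.28 and did not pass (adjusted p = 0.0566 and 0.314).

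Col8a1 and Col14a1 were called and separated tumors from controls without overlap, and Col6a4, a type VI chain, also did so without passing (0.90 ± 0.48, adjusted p = 0.253). Thus 3 of 41 collagens did not overlap, beside 9.39% of all genes. Skeletal muscle markers passed as lower in the tumors for 5 of 5 genes, adipocyte markers for 3 of 3 (Adipoq, Cidec and Fabp4) and smooth muscle markers for 1 of 4 (Myh11). Of all genes, 9.17% passed as lower. Endothelial markers passed as lower for 1 of 5 (Tek), with differences up to 0.51 and a median of −0.24. Keratinocyte markers did so for 3 of 6. Of the fibroblast markers 1 of 6 passed as lower (Dpt), with list means of 10.59 to 10.69 in control skin and 6.70 to 11.93 in the tumors. Differences in that list ran from −3.70 to 0.42. Of the Schwann cell markers 1 of 2 passed as lower (Mbp), and the other, Sox10, differed by 0.70 and did not pass. Of these cell types, muscle, fat, vessels and Schwann cells have basement membranes around them, and keratinocytes rest on such a membrane. The part of all these cell types in the lower signals was not tested.

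**Figure D1:**
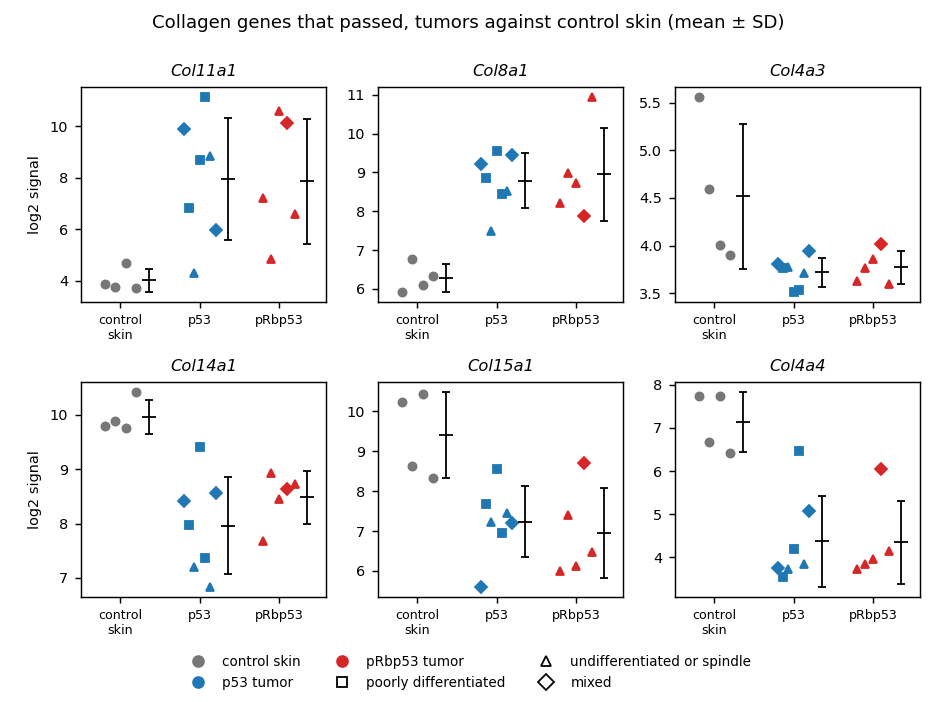
Log2 signal of the 6 collagen genes that passed between tumors and control skin, by sample. Colours give the group, shapes the histology, and the bars the mean ± SD of 4 control, 7 p53 and 5 pRbp53 samples. Col8a1 lies above and Col14a1 below all controls in 12 of 12 tumors, while Col11a1 spreads from 4.29 to 11.14 among tumors.

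By class, the 11 fibrillar collagens had a median difference of 0.27 between tumors and control skin, with 1 called higher, 0 lower and 10 that did not pass. The 9 basement membrane collagens had a median of −0.44, with 0 higher, 3 lower and 6 that did not pass. Without Col4a3 and Col4a4, whose means lay below the median probeset, that median was −0.03. The 21 others had a median of 0.07, with 1 higher and 1 lower. Over all 18193 genes the median was 0.06. Within the basement membrane class the chains went apart. Col4a1 and Col4a2, which form the main type IV network of nearly all basement membranes, were 1.24 ± 0.47 and 1.31 ± 0.50 higher and did not pass (adjusted p = 0.095 and 0.0995). Col18a1, the source of the fragment endostatin, was 1.44 ± 0.59 higher (adjusted p = 0.125). Over the tumors, Col4a1 ran from 10.62 to 13.41 with a median of 12.63, against 10.81 to 11.29 in control skin. Col4a2 ran from 9.23 to 12.62 with a median of 11.30, against 9.53 to 10.13. Without p53 tumor 5, in which all 3 had their lowest tumor value (10.62, 9.23 and 7.40), Col4a1, Col4a2 and Col18a1 passed and the count rose to 9. The share of all genes called without that tumor is not given here.

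The major fibrillar chains had negative differences that did not pass. Col1a1 and Col1a2, the chains of type I collagen and the main protein of dermis, differed by −1.53 ± 0.79 and −1.10 ± 0.57 (adjusted p = 0.232 and 0.238), and Col3a1, the chain of type III fibrils, by −0.89 ± 0.53 (adjusted p = 0.31). Col27a1, a fibrillar collagen of developing cartilage, was at 7.0, 7.45, 7.63 and 7.22 in control skin. It ran from 7.21 to 10.23 in the tumors, with a median of 8.95. It exceeded every control in 11 of 12 tumors and missed the threshold (1.58 ± 0.53, adjusted p = 0.0586). Col12a1, which links fibrils in tissues under load, ran from 6.58 to 12.51 in the tumors, and its difference of 1.74 ± 0.84 did not pass (adjusted p = 0.203), nor did a second probeset of nearly equal brightness (2.86 ± 0.96, adjusted p = 0.0607). An unadjusted p under 0.05 was reached by 10 of 41 collagens, beside 30.6% of all genes.

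The genotypes, set against the same 4 controls separately, gave different class medians. Fibrillar collagens had a median difference of −0.20 in p53 tumors and 1.03 in pRbp53 tumors, and basement membrane collagens one of 0.17 and −0.74. Of the 41 genes, 5 passed in p53 tumors, where 13.9% of all genes did, and 12 in pRbp53 tumors, where 23.4% did. Col8a1, Col11a1, Col4a4, Col14a1 and Col15a1 passed in both, and Col24a1, Col27a1, Col4a1, Col4a2, Col6a1 and Col6a2 (higher) and Col4a6 (lower) in pRbp53 tumors. The difference between the genotypes was tested separately, gene by gene and not by class. All 3 poorly differentiated tumors were p53 tumors, and 4 of 5 pRbp53 tumors were spindle cell carcinomas. In these medians, genotype and grade cannot be told apart.

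**Figure D2:**
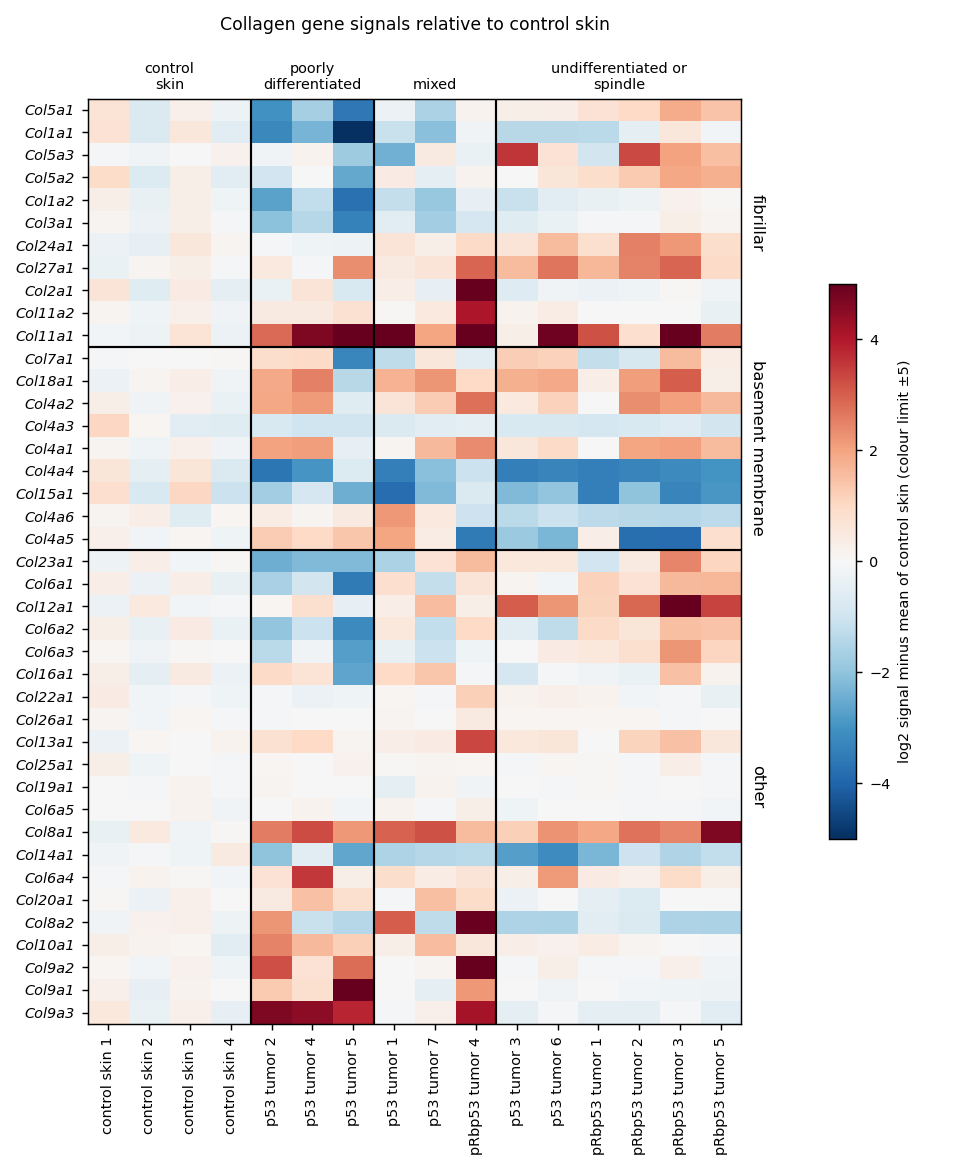
Log2 signal of each of the 41 collagen genes in each of the 16 samples minus its mean in control skin, with red above and blue below and the colour limited to 5 either way. Rows are grouped by class and ordered by their difference between grades, and columns by histology. Poorly differentiated tumors show low Col1a1, Col1a2, Col3a1 and Col5a1 and high Col9a3, and pRbp53 tumor 4 shows high cartilage collagens.

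The second comparison asked how collagens differed with histological grade, between 6 undifferentiated or spindle tumors and 3 poorly differentiated tumors. Fibril-forming collagens of types I, III and V, the type VI chain Col6a1 and the transmembrane Col23a1 were higher in undifferentiated or spindle tumors, and collagen IX chains, Col10a1, Col20a1 and the type IV chain Col4a6 were lower. In all, 6 of 41 collagens passed as higher and 5 as lower, where 4.49% and 4.64% of all genes did and 7.39% of all probesets passed. Signals of the 2 grades did not overlap for 18 of 41 collagens (43.9%), 10 higher and 8 lower, beside 15.9% of all genes.

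Col5a1, which starts fibril assembly and sets fibril width, was at 7.74, 9.10 and 7.19 in p53 tumors 2, 4 and 5. Undifferentiated or spindle tumors ran from 11.06 to 12.59 with a median of 11.61, and the difference was 3.68 ± 0.47 (SE, limma adjusted p = 0.0026), or 12.8-fold. The poorly differentiated tumors also lay below control skin (10.04 to 11.45), while the mixed tumors were between the grades at 10.47, 9.19 and 10.92. Both further probesets of Col5a1 passed in the same direction (3.22 ± 0.60 and 3.46 ± 0.63). Col5a2, its partner chain, was at 11.10, 12.02 and 9.49 in poorly differentiated tumors against 12.08 to 13.98, without overlap, and just missed the threshold (2.27 ± 0.58, adjusted p = 0.0512).

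Col1a1 was at 10.54, 11.41 and 8.47 in the poorly differentiated tumors. It ran from 12.35 to 14.32 with a median of 12.84 in undifferentiated or spindle tumors, and the difference was 2.91 ± 0.67 (adjusted p = 0.0346). Its other, dimmer probeset gave 0.96 ± 0.38 and did not pass (adjusted p = 0.175). Col1a2 was at 11.43, 12.85 and 10.36 against 12.98 to 14.29, a difference of 2.20 ± 0.49 (adjusted p = 0.0306), and its other probesets both passed. Col3a1 was at 11.91, 12.54 and 10.60 against 13.37 to 14.26, a difference of 2.17 ± 0.38 (adjusted p = 0.0112). Its dimmer probeset passed with a larger difference (3.37 ± 0.70, adjusted p = 0.0229). For these 3 genes of the main dermal fibrils, undifferentiated or spindle tumors had means close to control skin (13.05, 13.75 and 13.85 against 13.75, 14.09 and 13.96). Among them, p53 tumors 3 and 6 lay below every control for each gene (12.35 and 12.35 for Col1a1, 12.98 and 13.51 for Col1a2, 13.37 and 13.61 for Col3a1). So did pRbp53 tumor 1 for Col1a1 and Col1a2 (12.41 and 13.72). The poorly differentiated tumors lay below every control. The lowest value of all 16 samples was that of p53 tumor 5 for each of these 3 genes.

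Col6a1, a chain of the beaded filaments around cells, was at 9.76, 10.48 and 7.83 in poorly differentiated tumors and from 11.25 to 13.03, with a median of 12.31, in undifferentiated or spindle tumors (difference 2.88 ± 0.61, adjusted p = 0.0247). Its partners Col6a2 and Col6a3 had differences of 2.53 ± 0.70 and 2.27 ± 0.60 and did not pass (adjusted p = 0.0667 and 0.0565). Col6a3 was at 10.44, 11.62 and 9.04 in the poorly differentiated tumors, below the 11.82 to 14.01 of the other grade, and Col6a2 at 9.61, 10.50 and 8.39, which overlapped with 10.30 to 13.08. Col23a1, a collagen anchored in the cell membrane, was at 4.95, 5.18 and 5.17 in poorly differentiated tumors. It ran from 6.43 to 9.84 with a median of 7.90 in the other grade, a difference of 2.96 ± 0.59 (adjusted p = 0.0191), and both other probesets passed. Control skin lay at 7.14 to 7.70, near the undifferentiated or spindle tumors. Col12a1 separated the grades without overlap (6.58 to 7.79 against 8.12 to 12.51) but did not pass (2.87 ± 0.81, adjusted p = 0.0694). A second probeset of Col12a1, nearly as bright (mean 8.21 against 8.29), did pass (3.56 ± 0.75, adjusted p = 0.0244).

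Among the genes that were lower, Col9a3, a chain of the type IX collagen that lies on cartilage fibrils, had the largest difference in size among the 41 probesets read. It was at 10.64, 10.46 and 9.79 in the poorly differentiated tumors and from 5.42 to 5.93 with a median of 5.52 in undifferentiated or spindle tumors, so it fell by 4.66 ± 0.21 (adjusted p = 7.69e-06), or 25.3-fold. Control skin lay at 5.56 to 6.50, so poorly differentiated tumors stood above both. A second probeset fell by 4.68 ± 0.11 (adjusted p = 2.53e-07) and the dimmest, at a mean signal of 3.04, did not pass (−0.15 ± 0.10). Col9a2, the partner chain, was at 7.15, 4.65 and 6.74 against 3.75 to 4.24 and fell by 2.21 ± 0.47 (adjusted p = 0.0246). Col9a1, the third chain, was at 7.29, 6.80 and 11.56 against 5.72 to 6.02, without overlap, and did not pass (−2.69 ± 0.89, adjusted p = 0.111). The other, dimmer probeset of Col9a1 passed with a larger difference (−6.10 ± 0.75, adjusted p = 0.0021), so the call for this gene depends on the probeset. All 3 type IX chains were therefore higher in each of the 3 poorly differentiated tumors than in any undifferentiated or spindle tumor.

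Col10a1, the short chain collagen of hypertrophic cartilage, was at 6.44, 5.59 and 5.17 in the poorly differentiated tumors against 3.92 to 4.33 with a median of 4.15, and fell by 1.59 ± 0.25 (adjusted p = 0.0064). Col20a1, a fibril-associated collagen, was at 6.70, 7.72 and 7.07 against 5.59 to 6.28 and fell by 1.13 ± 0.24 (adjusted p = 0.0253), and 2 of its 3 other probesets passed. Col4a6, an epithelial and smooth muscle type IV chain, was at 7.40, 7.16 and 7.45 against 5.57 to 5.93 with a median of 5.67. It fell by 1.65 ± 0.11 (adjusted p = 9.75e-05), and its second probeset fell by 2.28 ± 0.20. Col4a5, whose protein pairs with that of Col4a6, was at 9.07, 8.82 and 9.18 against 3.99 to 8.65, without overlap, and did not pass (−2.97 ± 1.06, adjusted p = 0.137). Among the undifferentiated or spindle tumors, Col4a5 stood at 8.13 and 8.65 in pRbp53 tumors 1 and 5 and at 5.95 or less in the other 4, while Col4a6 was low in all 6.

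**Figure D3:**
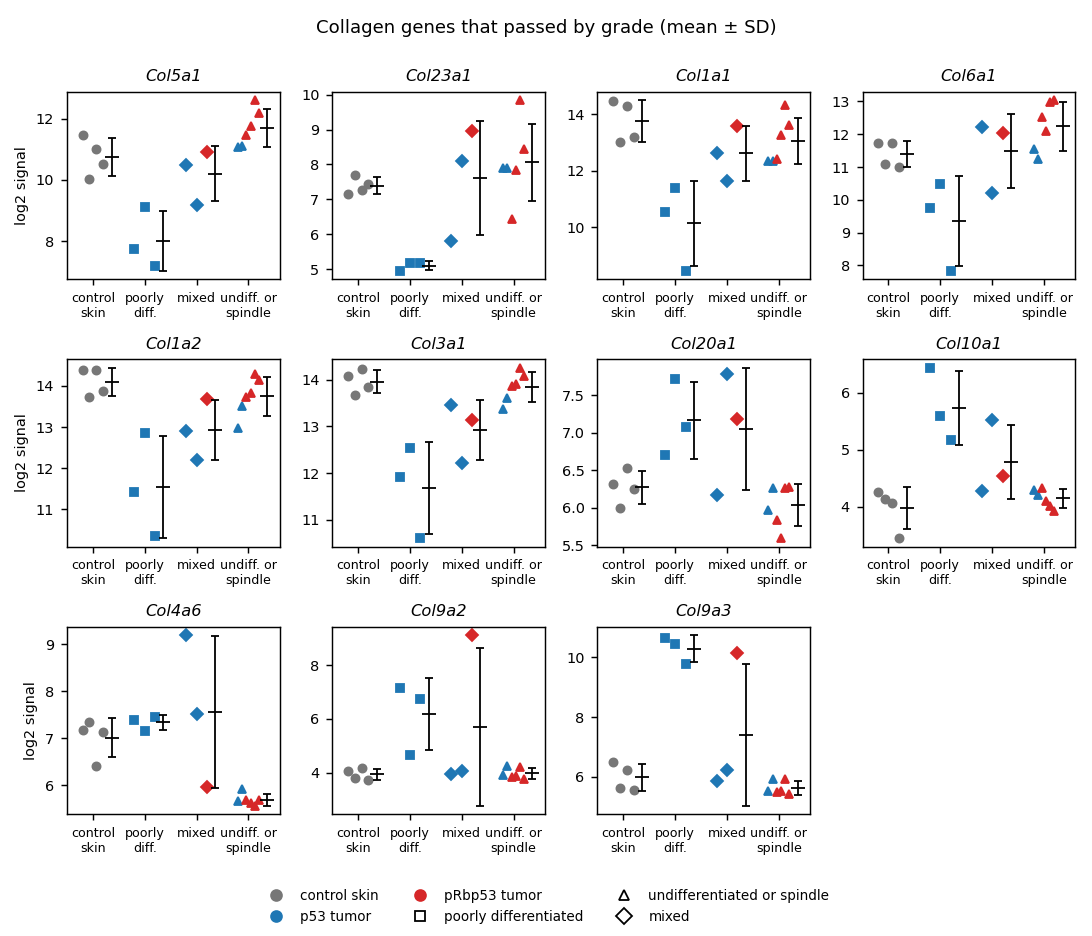
Log2 signal of the 11 collagen genes that passed between grades, by sample and histology, with control skin and the mixed tumors, which were not in the test, for reference. Bars are the mean ± SD of 4 control, 3 poorly differentiated, 3 mixed and 6 undifferentiated or spindle samples. In none of the 11 panels do the 2 grades overlap, and the mixed tumor with high Col9a2 and Col9a3 is pRbp53 tumor 4.

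By class, the median difference between the grades was 2.17 over the 11 fibrillar collagens, with 4 called higher and 0 lower, and 6 higher and 1 lower without overlap. It was −0.04 over the 9 basement membrane collagens, with 0 higher and 1 lower, and −0.07 over the 21 others, with 2 higher and 4 lower. The median over all genes was 0.02. Within the fibrillar class, Col11a1 and Col11a2 had negative differences (−1.82 ± 1.47 and −0.52 ± 0.16) that did not pass (adjusted p = 0.537 and 0.0862), and Col2a1 was at −0.08 ± 0.28. Within the other collagens, the 5 type VI chains had a median of 2.27 and the 9 fibril-associated collagens one of −0.28. Col8a1 and Col14a1, which separated all tumors from control skin, differed by −0.13 ± 0.65 and −0.28 ± 0.58 between the grades, with adjusted p of 0.937 and 0.842.

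**Figure D4:**
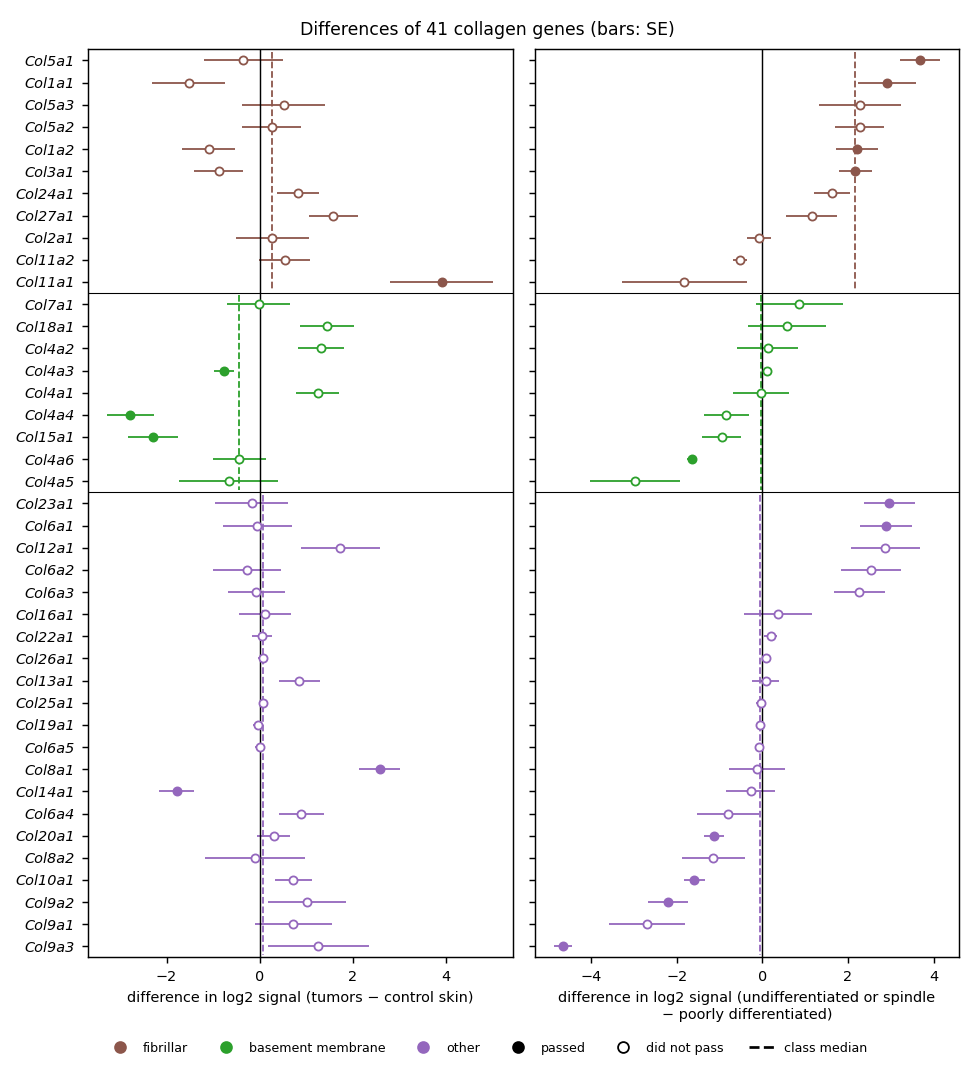
Difference in log2 signal of each of the 41 collagen genes, tumors minus control skin on the left and undifferentiated or spindle minus poorly differentiated tumors on the right. Points are the limma estimates, bars the SE, filled points those that passed at adjusted p under 0.05, and dashed lines the class medians. On the right, the fibrillar median lies at 2.17 and the others at −0.04 and −0.07.

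Both grades were also set against the same controls, which they share. Of the 41 collagens, 13 passed for poorly differentiated tumors, where 19.2% of all genes did, and 11 for undifferentiated or spindle tumors, where 29.8% of all genes did. In poorly differentiated tumors 4 fibrillar collagens passed as lower than control skin, namely Col1a1 (−3.61 ± 0.71), Col5a1 (−2.74 ± 0.50), Col1a2 (−2.55 ± 0.54) and Col3a1 (−2.28 ± 0.43), and Col11a1 passed as higher (4.88 ± 0.90, adjusted p = 0.0122). Col6a2 (−2.08 ± 0.48), Col23a1 (−2.29 ± 0.16) and Col14a1 (−1.72 ± 0.46) were also lower there, and Col8a1 (2.66 ± 0.30), Col9a2 (2.25 ± 0.56) and Col10a1 (1.76 ± 0.33) higher. In undifferentiated or spindle tumors 0 fibrillar collagens passed as lower, and Col27a1 (2.05 ± 0.36) and Col24a1 (1.43 ± 0.39) passed as higher. Of the other class, Col12a1 (3.03 ± 0.67) and Col8a1 (2.53 ± 0.54) were higher and Col14a1 (−2.0 ± 0.41) and Col8a2 (−1.26 ± 0.24) lower. Of the basement membrane class, Col18a1 (1.57 ± 0.50, adjusted p = 0.0434) and Col4a1 (1.19 ± 0.38, adjusted p = 0.0468) were higher and 3 were lower. Col4a6 was lower in undifferentiated or spindle tumors (−1.32 ± 0.17, adjusted p = 0.000327), as were Col4a4 and Col15a1, and Col4a5 was higher in poorly differentiated tumors (1.22 ± 0.16, adjusted p = 0.0031). Col9a3 passed in poorly differentiated tumors (4.32 ± 0.30, adjusted p = 0.000174).

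Some cell type markers also differed between the grades, while 0 of 5 skeletal muscle, 0 of 4 smooth muscle and 0 of 3 adipocyte markers passed. Of all genes, 4.49% passed as higher and 4.64% as lower. Fibroblast markers averaged 9.21 to 11.93 in undifferentiated or spindle tumors and 6.70 to 8.64 in poorly differentiated tumors, and 2 of 6 passed (S100a4 and Pdgfra). Macrophage markers passed as higher for 3 of 4, endothelial markers for 1 of 5, and Cdh1 was the 1 of 6 keratinocyte markers that passed as lower. Of the Schwann cell markers, the 2 measured were both lower. Sox10 was at 9.26, 9.31 and 9.64 in the poorly differentiated tumors against 6.13 to 6.50 in the other grade, with control skin at 6.18 to 6.78. Mbp was at 7.93, 8.29 and 8.21 against 6.48 to 7.10, with control skin at 8.64 to 8.85. Col9a3 also split these grades without overlap, as 15.9% of all genes did. In the mixed pRbp53 tumor 4, Col9a3 was at 10.15 and Sox10 at 6.53. Of 5 chondrocyte markers, 0 passed by limma or the Welch test and 1 had an unadjusted p under 0.05 by limma, and their mean was 4.92 to 6.53 in poorly differentiated tumors and 5.18 to 5.74 in the other grade. The part of these cell types in the collagen differences was not tested.

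The calls depended on how the tumors were divided. With genotype as a covariate 4 of the 11 calls held (Col5a1, Col4a6, Col9a3 and Col10a1), and within p53 tumors alone 4 collagens passed, of which Col23a1, Col4a6 and Col9a3 were among the 11. Leaving out 1 tumor gave 6 calls without p53 tumor 2 and 7 without pRbp53 tumor 1 or without pRbp53 tumor 5, and Col1a1 and Col1a2 each lost their call when any 1 of 7 of the 9 tumors was left out. The shares of all genes called in these fits are not given here.

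The third comparison set the 5 pRbp53 tumors against the 7 p53 tumors to ask whether loss of pRb changes the tumors. No collagen passed at an adjusted p of 0.1 with limma, where 0.198% of all probesets and 0.159% of all genes did. At an unadjusted p under 0.05, 12 of 41 did, beside 10.6% of all genes, and a Welch test with the same adjustment also gave 0. Col6a2, a type VI chain, came closest. It ran from 8.39 to 12.10 with a median of 10.34 in p53 tumors and was at 12.55, 12.20, 13.08, 12.57 and 13.00 in pRbp53 tumors, without overlap (2.36 ± 0.50, adjusted p = 0.144). Col1a2 also did not overlap (1.62 ± 0.47, adjusted p = 0.301). Its p53 tumors ran from 10.36 to 13.51 and its pRbp53 tumors from 13.67 to 14.29. The share of all genes without overlap between genotypes was not computed, so these collagens have no background beside them. Col5a1 had the largest difference, 2.38 ± 0.69, and did not pass (adjusted p = 0.301).

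Of the 11 fibrillar collagens, 10 had a positive difference between genotypes, with a median of 1.13, against a median of −0.01 over all genes. Basement membrane collagens had a median of −0.15 and the others one of 0.15. Fibroblast markers averaged 6.70 to 9.67 in p53 tumors and 9.37 to 11.93 in pRbp53 tumors, with a median difference of 1.90 over 6 genes, and keratinocyte markers 4.95 to 11.85 and 4.80 to 6.46, with a median difference of −3.27 over 6 genes. Of these 12 genes, 0 passed by limma or the Welch test at an adjusted p of 0.1 and 7 had an unadjusted p under 0.05 by limma, and their part in the collagen differences was not tested. Spindle or undifferentiated histology was found in 4 of 5 pRbp53 tumors and 2 of 7 p53 tumors. With grade as a covariate, and without the poorly differentiated tumors, 0 collagens passed, and without p53 tumor 1 Col6a2 did.

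The fourth question was whether chains that assemble into 1 molecule or fibril varied together over the 12 tumors. Pairs of chains that do not assemble together were not examined, so whether such variation is particular to partners was not tested. Of the 8 pairs examined, Pearson's r passed for 7 at an adjusted p of 0.05 over the pairs (two-sided permutation test with 100000 resamples). Col4a1 and Col4a2, which share a promoter region and form the main basement membrane network, had r = 0.97 (rho = 0.94), and Col6a1 and Col6a2 r = 0.96 (rho = 0.92). Col1a1 and Col1a2 had r = 0.96 (rho = 0.92), Col5a1 and Col5a2 r = 0.94 (rho = 0.97), Col1a1 and Col3a1 r = 0.93 (rho = 0.87) and Col6a1 and Col6a3 r = 0.90 (rho = 0.83). For 4 of these pairs the permutation p was 1e-05, the smallest that the resamples can give, with an adjusted p of 2e-05, and for the other 2 the adjusted p was 6.7e-05 or less. By Spearman's rho the adjusted p of the 6 pairs lay between 8e-05 and 0.0021.

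The chains of the minor type IV molecule were less closely tied. Col4a5 and Col4a6 had r = 0.72 (adjusted p = 0.0095) and rho = 0.79 (adjusted p = 0.004), and pRbp53 tumors 1 and 5 had high Col4a5 with low Col4a6. Col8a1 and Col8a2, which can form one molecule or each their own, had r = −0.23 (adjusted p = 0.46) and rho = −0.12 (adjusted p = 0.71). Col8a2 was at 8.69, 7.88 and 10.61 in p53 tumors 1 and 2 and pRbp53 tumor 4 and at 4.08 to 5.10 in the other 9, while Col8a1 was high in all 12. Without the 2 tumors farthest from the median of the first chain, r lay between 0.66 and 0.94 for the 7 pairs. After the mean of each genotype was subtracted, r was 0.58 for Col4a5 and Col4a6 and between 0.82 and 0.97 for the other 6. After the mean of each grade was subtracted, an alternative chosen after seeing the data, r lay between 0.66 and 0.97 for the 7.

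**Figure D5:**
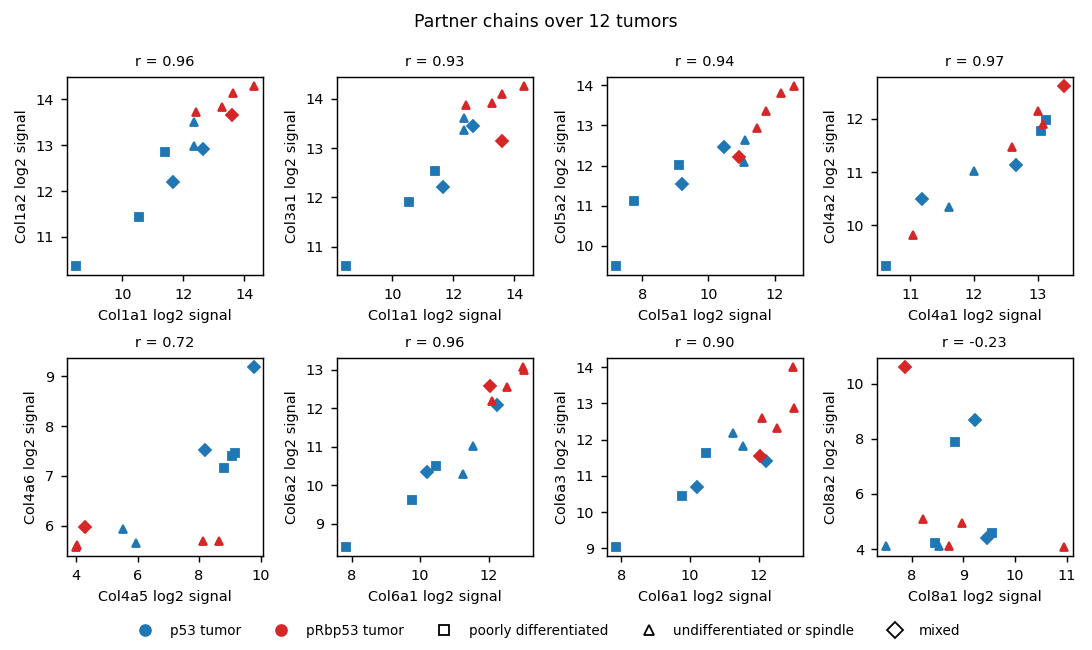
Log2 signal of one collagen chain against that of its partner over the 12 tumors, for 8 pairs, with Pearson's r above each panel. Colours give the genotype and shapes the histology. Points follow a line in the type I, III, V, VI and main type IV pairs (r of 0.90 or more), and not for Col8a1 and Col8a2 (r = −0.23), where 3 tumors stand high for Col8a2.

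Collagens outside the range of the controls were counted in each tumor. Between 12 and 23 of the 41 genes lay above all 4 controls in a given tumor (29.3% to 56.1%) and between 7 and 22 below them (17.1% to 53.7%). Over all genes these shares were 33.6% to 40.3% and 28.9% to 33.8%. The most genes below were found in p53 tumor 5 (22, of which 7 were fibrillar and 6 basement membrane collagens). The most above were found in pRbp53 tumor 4 (23, of which 15 were in the other class), and pRbp53 tumor 3 had 22 above, 7 of them fibrillar.

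Several collagens of cartilage were high in some tumors. In pRbp53 tumor 4, a mixed carcinoma, Col2a1, the chain of type II collagen and the main collagen of cartilage, was at 10.87, against 5.35 to 5.69 in the other pRbp53 tumors and 4.85 to 6.28 in all remaining samples. In the same tumor Col11a2 was at 8.32 (3.94 to 4.33 in the other pRbp53 tumors), Col9a1 at 8.17 (5.72 to 6.0), Col9a2 at 9.11 (3.75 to 4.19) and Col9a3 at 10.15 (5.42 to 5.92). Col10a1 was not raised to that degree, at 4.55 against 3.92 to 4.33. Of the chondrocyte markers, Comp was at 11.76 (4.92 to 7.21), Sox9 at 10.56 (6.98 to 8.71) and Hapln1 at 6.66 (3.06 to 3.80), while Acan at 6.68 and Matn3 at 4.07 lay within the range of the other pRbp53 tumors. High type IX signals were not particular to pRbp53 tumor 4. In the poorly differentiated p53 tumors 2, 4 and 5, Col9a3 was at 10.64, 10.46 and 9.79. Col9a2 was at 7.15, 4.65 and 6.74 there, and Col9a1 at 7.29, 6.80 and 11.56. In p53 tumor 5, Col9a1 was at 11.56, Col11a1 at 11.14 and Comp at 12.06, each the highest of all 16 samples, but Col2a1 at 4.85 and Hapln1 at 3.25 were not high. The patterns of pRbp53 tumor 4 and p53 tumor 5 each rest on a single array, and no test was made.

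The genes that make, fold, cross-link, bind and degrade collagen were read from 7 lists. Beside them, 7.57% of all genes passed as higher in tumors than in control skin and 9.17% as lower. Between tumors and control skin, 4 of 15 genes of prolyl and lysyl modification passed as higher and 0 as lower. They were Plod2, which hydroxylates lysines of the collagen ends (3.94 ± 0.45), P4ha1 and P4hb, subunits of prolyl hydroxylase (1.2 ± 0.30 and 0.92 ± 0.16), and Ppib, a prolyl isomerase (0.64 ± 0.13). Of 10 folding and secretion genes measured, 1 passed, the chaperone Hspa5 (0.94 ± 0.23). Of 11 propeptide processing and cross-linking genes, Loxl3, a lysyl oxidase, was higher (2.55 ± 0.56) and Pcolce2, an enhancer of propeptide removal, lower (−4.62 ± 1.02). Of 13 fibril-binding proteins, 2 fell and 0 rose, namely Tnxb, tenascin X, which bridges dermal fibrils (−5.70 ± 0.46), and Dpt, dermatopontin (−3.70 ± 1.10).

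Of 12 collagen receptors, the integrin chains Itga1 (1.33 ± 0.42) and Itgb1 (1.26 ± 0.39) were higher and Adgrg1, an adhesion receptor that binds type III collagen, lower (−1.81 ± 0.51). Of 13 proteases and their inhibitors, Mmp13, a collagenase (5.02 ± 1.12), and Timp1, a metalloproteinase inhibitor (3.80 ± 0.76), were higher and Pepd, which splits proline dipeptides, lower (−1.12 ± 0.23). Of 14 basement membrane partners of type IV collagen, Lama2, a laminin chain of muscle and nerve, was the 1 that passed (−1.96 ± 0.61).

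Between the grades, the same lists gave the following calls, beside 4.49% of all genes called higher and 4.64% called lower. Loxl1, Pcolce, Lox and Bmp1, which trim and cross-link fibrils, were higher in undifferentiated or spindle tumors (3.81 ± 0.63, 3.50 ± 0.34, 2.86 ± 0.72 and 2.57 ± 0.36), 4 of 11 with 0 lower. Thbs2, Dcn, Fn1 and Postn were higher (4.47 ± 0.62, 3.02 ± 0.48, 2.45 ± 0.53 and 2.26 ± 0.53), 4 of 13 fibril-binding proteins with 0 lower. P3h1 and Crtap, of the complex that hydroxylates 1 proline of fibrillar chains, and Plod3 were higher (2.08 ± 0.50, 1.72 ± 0.33 and 1.26 ± 0.14), 3 of 15. Sec24d and Sec23a, coat proteins of the vesicles that carry procollagen, were higher (1.77 ± 0.27 and 1.15 ± 0.29), 2 of 10. Of 13 proteases and inhibitors, 7 were higher and 0 lower, led by Mmp9 (5.38 ± 0.62), Mmp3 (4.94 ± 1.2), Ctsk (4.12 ± 0.61), Timp1 (3.12 ± 0.49), Timp2 (2.65 ± 0.57) and Mmp14 (2.49 ± 0.57).

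Collagen receptors split. Ddr2, the discoidin receptor of mesenchymal cells, rose by 3.77 ± 0.40 and Ddr1, its epithelial relative, fell by 2.37 ± 0.37, the endocytic receptor Mrc2 (2.89 ± 0.52) and the inhibitory leukocyte receptor Lair1 (1.42 ± 0.35) were higher, and Adgrg1 lower (−1.23 ± 0.20), so that 3 of 12 rose and 2 fell. Of 14 basement membrane partners, Nid1, Lamb1 and Pxdn, which cross-links type IV collagen, were higher (2.25 ± 0.33, 2.16 ± 0.54 and 1.70 ± 0.40) and Lama5 and Agrn lower (−2.01 ± 0.31 and −1.67 ± 0.42). Between the genotypes, 0 of the 88 genes of the 7 lists passed by limma or by the Welch test at an adjusted p of 0.1, and 25 had an unadjusted p under 0.05 by limma (28.4%), beside 10.6% of all genes. The 2 largest differences of each list, none of which passed, were those of Lamb3 (−3.22 ± 1.10) and Lama3 (−2.48 ± 1.13) of the basement membrane partners, Thbs2 (2.79 ± 0.90) and Dpt (2.75 ± 1.02) of the fibril-binding proteins, and Loxl1 (2.46 ± 0.83) and Lox (2.42 ± 0.69) of the cross-linking genes. They were Ctsk (2.27 ± 0.97) and Fap (2.08 ± 0.73) among proteases, Ddr2 (2.10 ± 0.76) and Mrc2 (1.22 ± 0.77) among receptors, Creb3l1 (1.44 ± 0.77) and Sparc (1.07 ± 0.42) in folding and secretion, and P4ha2 (1.09 ± 0.69) and P3h3 (1.09 ± 0.44) in chain modification.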

How the data were processed

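The deposited table holds log2 signals of 45101 probesets on 16 arrays, which the authors computed by RMA (background correction, quantile normalization and probe summary; its version is not given in the sources used here). After 64 array controls were left out, 45037 probesets were fitted with limma 3.58.1 (lmFit and eBayes, R 4.3.3) without covariates, two-sided, with Benjamini-Hochberg adjustment over all of them. Calls were made at an adjusted p under 0.05, and under 0.1 between genotypes as in the study. Mixed tumors entered the comparison with control skin and that between genotypes, not that between grades.

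Genes were named from the 2016 platform annotation, which gives 1 symbol to 34945 probesets, several to 932 and none to 9160, and 1 probeset per gene, that with the highest mean, was read. All calls, SE and folds come from that probeset. Quantile normalization gives all arrays nearly one distribution, so a shift shared by most genes would not be seen. Groups came from the labels. The members, classes and gene lists were chosen with earlier results of these data known. Values are given for collagens that passed, partner chains and the 2 largest differences from control skin per class, and from each list for up to 6 genes that passed, or the 2 largest where none did. Collagens near the threshold, and second probesets, were added after their values were seen. Samples with equal numbers were not paired: of 13 such pairs, 3 had deviations from the group means that correlated above 0.1 (range −0.23 to 0.25). Correlations used scipy 1.17.1 (Python 3.11.15) with 100000 permutations over 8 pairs. Tested on simulated data with 45037 probesets, the fit recovered 55.5% of changes of 1 and 87.5% of changes of 2 on the log2 scale against control skin, 45.0% and 78.0% between grades, and 57.0% and 85.5% between genotypes. False calls numbered 23, 18 and 34. The changed probesets were drawn at random from all, each with its own spread, so recovery for the more variable collagens was not measured.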

Additional observations from a re-analysis of the deposited data

Results flagged for a closer look

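For each collagen, in control skin, p53 tumors, pRbp53 tumors and undifferentiated or spindle tumors, a sample was singled out where its gap to the nearest other, divided by the range of the group, exceeded Dixon's 95% critical value, which chance exceeds in about 1 in 20 groups. Of 164 groups examined, 13 held such a sample. Of these, 7 belonged to 1 array and are not independent of each other.

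That array was pRbp53 tumor 4, which stood above the other 4 pRbp53 tumors for Col2a1 (10.87 against 5.35 to 5.69), Col11a2 (8.32 against 3.94 to 4.33), Col9a1 (8.17 against 5.72 to 6.0), Col9a2 (9.11 against 3.75 to 4.19) and Col9a3 (10.15 against 5.42 to 5.92). It also stood above them for Col8a2, a short chain collagen (10.61 against 4.08 to 5.10), and for Col4a4 (6.05 against 3.73 to 4.16).

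In p53 tumor 5, Col18a1 was far below the other p53 tumors (7.40 against 10.53 to 11.31) and Col9a1 far above them (11.56 against 5.53 to 7.29). In p53 tumor 1, Col19a1, a fibril-associated collagen, was at 3.89 against 4.32 to 4.57. In pRbp53 tumor 3, Col16a1, another fibril-associated collagen, was at 11.24 against 9.43 to 9.94. Among the undifferentiated or spindle tumors, p53 tumor 6 was highest for Col4a6 (5.93 against 5.57 to 5.69) and for Col6a4 (6.72 against 4.84 to 5.53).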

How the results depend on the processing

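Between tumors and control skin, 6 collagens passed, and the count was 12 with array weights, 11 by a Welch test with the same adjustment, 12 with pRbp53 tumors alone, 11 with undifferentiated or spindle tumors alone and 13 with poorly differentiated tumors alone. In the last 3 fits, 23.4%, 29.8% and 19.2% of all genes passed. For the other alternatives in this section the share of all genes is not given, so their counts have no background beside them. Leaving out 1 sample gave 3 to 9 calls, 3 without control skin 1 and 9 without p53 tumor 5. Without control skin 3 and p53 tumor 7 it was 5. Col8a1 kept its call in 32 of 32 alternatives, Col14a1 in 31 of 32, Col4a4 in 30 of 31, Col15a1 in 26 of 32, Col11a1 in 24 of 32 and Col4a3 in 23 of 31. Between the grades, 11 passed, and the count was 1 by the Welch test (Col4a6), 4 with genotype as a covariate, 4 with p53 tumors only and 17 at an adjusted p under 0.1. Leaving out 1 tumor gave 6 to 13. Col4a6 kept its call in 20 of 21 alternatives, Col9a3 in 19 of 21, Col5a1 in 18 of 21, and Col1a1 and Col1a2 in 10 of 21 each. Between genotypes, 0 passed, and Col6a2 was the 1 that passed with array weights, with brighter probesets only (1) and without p53 tumor 1, so that leaving out 1 tumor gave 0 to 1. Of the partner chains, 7 of 8 pairs passed in each alternative run, each tumor left out included.

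With the replicate number as a block, although the numbers did not pair the samples, 4 collagens passed against control skin (3 of the 6, and Col18a1), 0 between grades and 0 between genotypes. The median difference from control skin of fibrillar collagens was −0.20 with p53 tumors alone and 1.03 with pRbp53 tumors alone, and that of basement membrane collagens 0.17 and −0.74. With all 12 tumors, the basement membrane median was −0.44 over all 9 members and −0.03 over brighter members only. The causes of these changes were not tested. No direction of a called gene reversed in the alternatives run. The small number of arrays and, for Col4a3, Col4a4, Col9a2 and Col10a1, signals below the median probeset limit the precision.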
